A study of Mus musculus with 2 samples.

Results

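The cornified envelope is the cross-linked protein shell that replaces the plasma membrane of a keratinocyte in the last step of squamous differentiation. Plakins and involucrin form a first scaffold under the membrane, small proline-rich proteins, loricrin and late cornified envelope proteins are added to it, and transglutaminases join these proteins by bonds between glutamine and lysine side chains. Filaggrin packs the keratin filaments inside the cell, and corneodesmosin holds the dead cells together. The anterior pituitary is a simple glandular epithelium and is not known for making this structure. The genes described here were chosen by name: every gene whose symbol begins with Sprr, Lce or Tgm followed by a digit, and 23 further genes of late squamous differentiation. Of the 20647 genes in the deposited table, 56 fulfilled this rule. Another 12 names that fulfil it in the RefSeq gene list had no row (Casp14, Flg2, Tchhl1, Lce6a, Sprr4, Tgm6 and 6 Lce1 genes).

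Expression was measured by RNA-seq in 1 library of dense and 1 library of cystic organoids grown from mouse pituitary, both kept in PitOM medium and both from males aged 10 weeks. The dense organoids were at passage 4 and came from a -/iDTR mouse, which carries no Cre. The cystic organoids were at passage 2 and came from a GHCre/iDTR mouse. Such a pair of alleles places Cre under control of the growth hormone gene, active in somatotrophs, and a diphtheria toxin receptor under control of Cre; the labels name no toxin treatment. Both mice carried iDTR, and the labels do not say how many organoids entered each RNA sample. Organoid type, passage and mouse differ together and cannot be told apart. With no replicates there was no test between the groups, and the intervals below reflect the number of reads alone and hold no variation among cultures or animals.

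The dense library held 19258313 and the cystic library 17247431 reads. Values are normalized counts, and 1 read equals 0.956 in the dense and 1.05 in the cystic library. The stratified epithelium markers Krt5, Krt14 and Trp63 summed to 331217 normalized counts in dense against 98.3 in cystic organoids. Of the pituitary stem cell markers, Pitx1 (5614 and 1276) and Sox2 (3885 and 2790) were higher in dense organoids and Sox9 (1527 and 2842) was higher in cystic organoids. Lhx3 and Six6 had no read in dense organoids, against 172 and 3385 in cystic ones. Markers of other cell types were scarce in both: 6 fibroblast genes summed to 14.3 in dense against 112 in cystic organoids, 3 of 4 endothelial genes with a row to 15.3 and 24.1, 4 of 5 leukocyte genes with a row to 19.1 and 48.1, and 5 erythroid genes to 5.74 and 6.28. The 7 hormone genes summed to 703 in dense against 3978 in cystic organoids. The part of these cells in the results was not tested.

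Cornified envelope genes took 1.43% of the reads in dense organoids (Wilson 95% interval 1.43 to 1.44) and 0.0485% in cystic organoids (0.0475 to 0.0495). Summed over the 56 genes, this was 263309 against 8748 normalized counts, a 30.1-fold difference. Among the 500 most abundant of the 20647 genes in each library, 13 of the 56 were found in dense and 1, Ppl, in cystic organoids. The same genes led both sums, with Ppl, Cnfn, Sprr1a and Sfn among the 5 most abundant of each, but in different shares. Periplakin alone gave 65.3% of the sum in cystic and 12.8% in dense organoids, and the 5 most abundant genes gave 91.1% and 48.8%. In bulk RNA, fewer cells of a type and less RNA per cell cannot be told apart.

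Of the 56 genes, 52 had a higher value in dense and 4 in cystic organoids (Tgm2, Tgm7, Lce1g and Lce1h, none above 16.7 normalized counts). No read was found in the cystic library for 34 of them and in the dense library for 2. A gene is called dense-high or cystic-high here where the ratio of its values, with a pseudocount of 1, reached 4-fold in that direction, among genes with a mean of both libraries of at least 50. Of the 56 genes, 38 reached that mean, and all 38 were dense-high, beside 7.65% of 11279 genes that were dense-high and 7.86% that were cystic-high. However, 28 of the 38 had under 50 normalized counts in cystic organoids and reached the mean through the dense library alone, so nothing is read from that count. The other 10 genes had at least 50 normalized counts in cystic organoids whatever their level in dense ones, a selection made after the data were seen. All 10 were dense-high (Ppl, Evpl, Sprr1a, Sfn, Cnfn, Tchh, Tgm5, Sbsn, Sprr3 and Scel), beside 3.66% of 10965 genes with that level. Of these, 7 of 10 differed by at least 10-fold, beside 1.37%. Their median log2 ratio of dense over cystic was 5.01, against -0.041 over the same 10965 genes. Read from the other side, 41 of the 56 genes had at least 50 normalized counts in dense organoids, and 23 of these had no cystic read, beside 1.70% of 10812 genes.

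**Figure D1:**
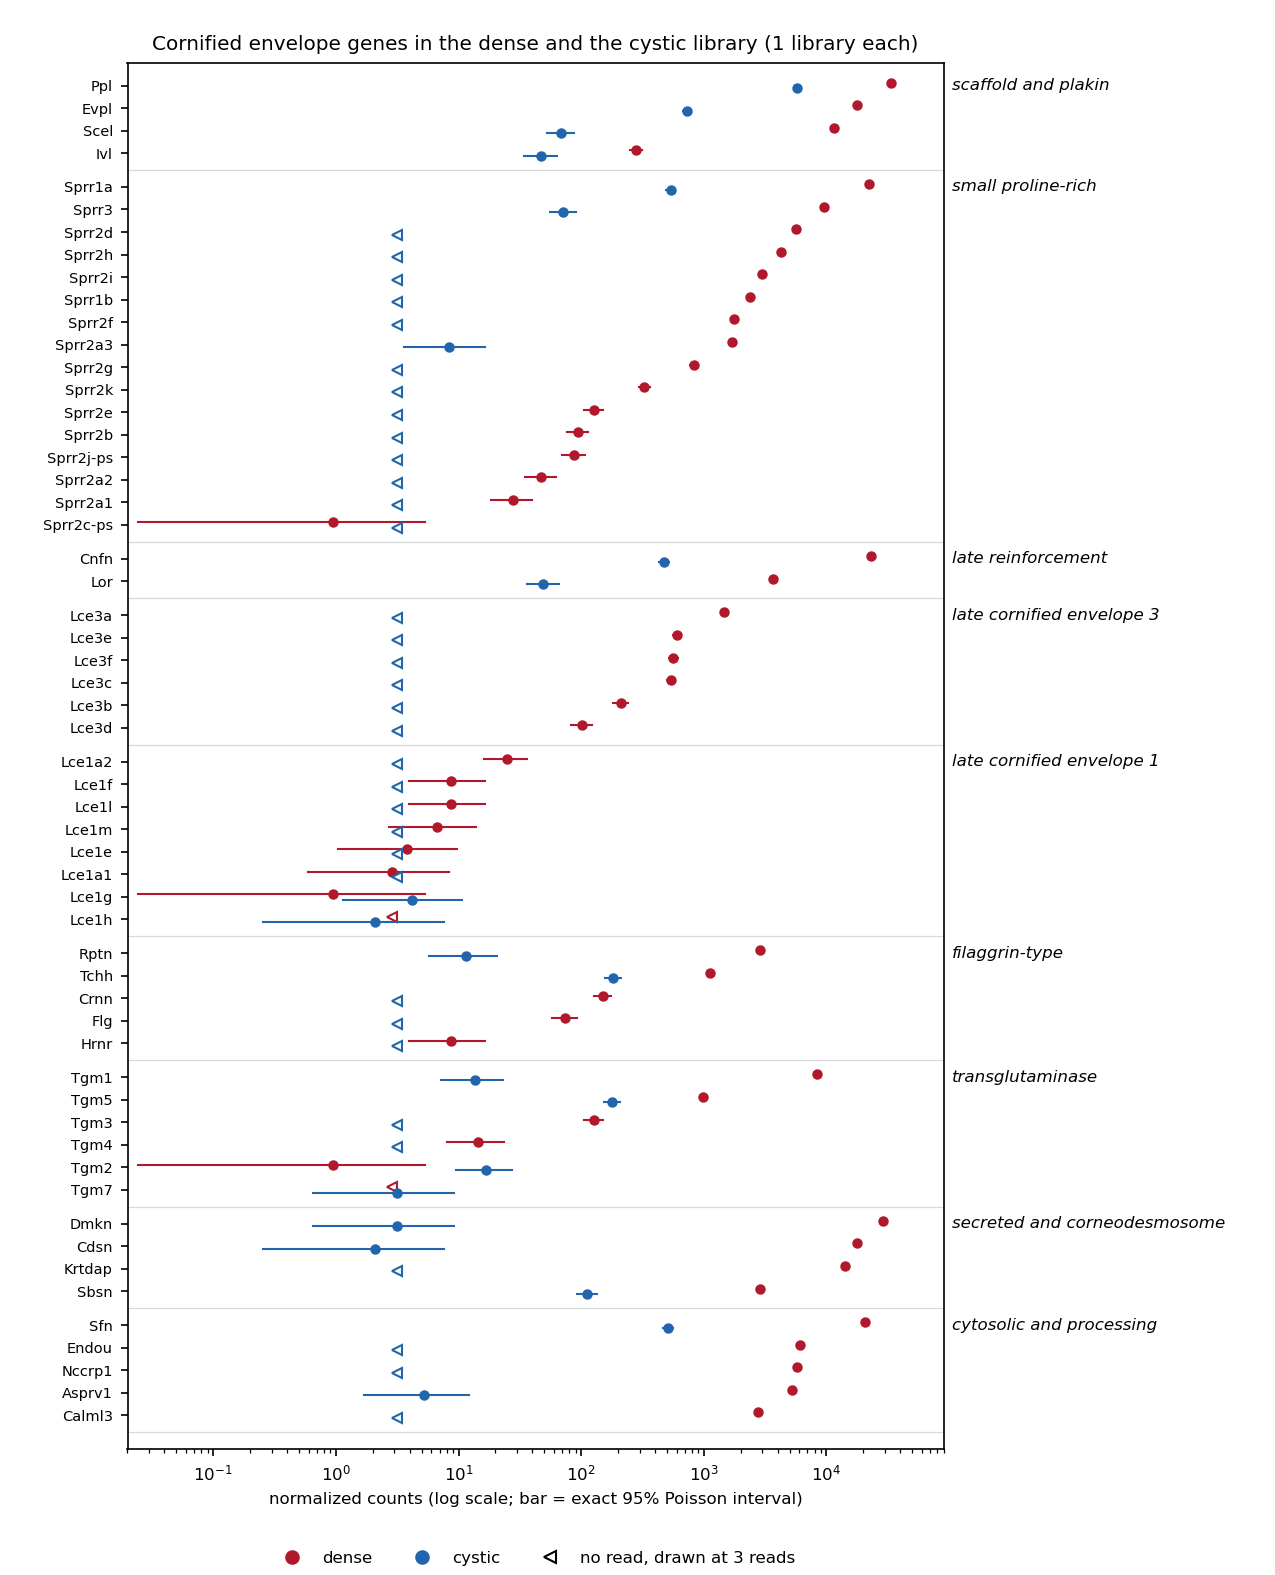
Normalized counts on a log axis for the 56 cornified envelope genes, grouped by role, in the dense (red) and the cystic (blue) library, with exact 95% Poisson intervals as bars and genes without a read as open triangles at 3 reads. The red points lie to the right of the blue ones except for Lce1g, Lce1h, Tgm2 and Tgm7 and for genes with 3 reads or fewer in both libraries.

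**Figure D2:**
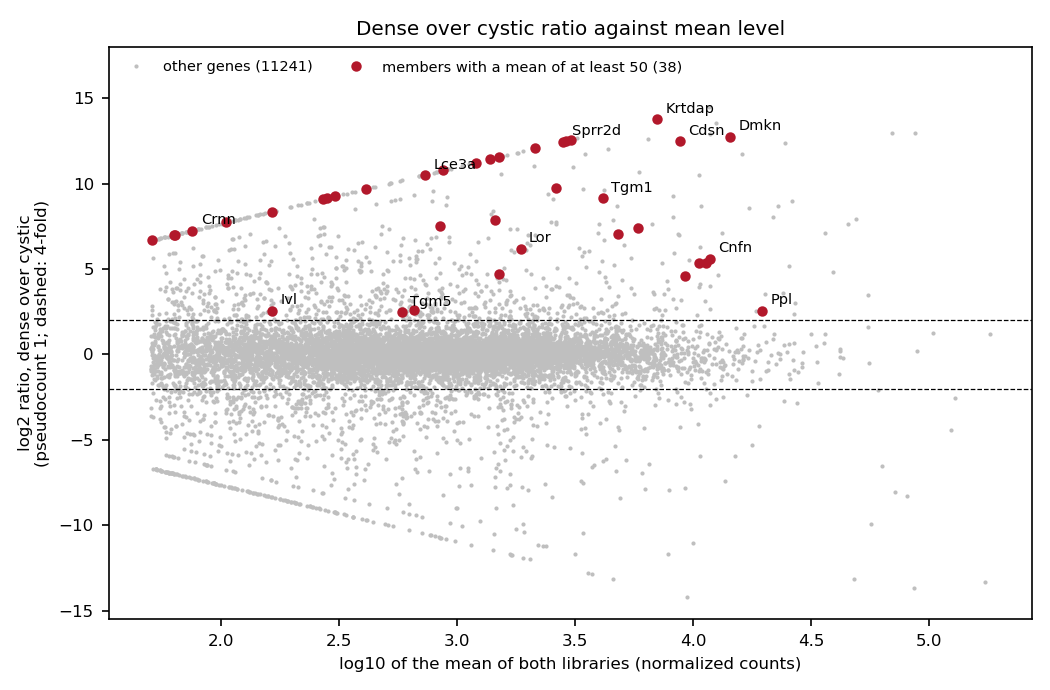
Log2 ratio of dense over cystic (pseudocount 1) against the log10 mean of both libraries for the 11279 genes with a mean of at least 50, with the 38 cornified envelope genes in red. The upper diagonal edge is formed by genes with no read in the cystic library. Periplakin, involucrin, trichohyalin and Tgm5 lie closest to the dashed 4-fold line.

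The early scaffold was the part with most reads in cystic organoids. Periplakin (Ppl, ENSMUSG00000039457), a plakin that ties keratin filaments to the envelope, had 33677 normalized counts in dense against 5714 in cystic organoids, a 5.89-fold difference (95% counting interval 5.73 to 6.07). Its partner envoplakin (Evpl, ENSMUSG00000034282) had 17763 and 735, which is 24.2-fold (22.4 to 26.1). Both were higher in dense organoids, envoplakin by the wider margin. Per kilobase of exon, the level of Ppl was 1.76 times that of Evpl in dense organoids (1.72 to 1.79) and 7.20 times in cystic organoids (6.65 to 7.79). Sciellin (Scel), a LIM-domain envelope precursor, had 11617 and 68.0 (171-fold, 134 to 221). Involucrin (Ivl, ENSMUSG00000049128), the classical early precursor, had 282 in dense against 47.1 in cystic organoids (5.99-fold, 4.37 to 8.39). Both values were below those of the other scaffold genes. Per kilobase Ivl reached 147 in dense organoids, rank 36 of the 56 genes, while Scel reached 4641. Among all genes, Ivl stood per kilobase at percentile 72.8 in dense and 50.6 in cystic organoids.

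The small proline-rich proteins bridge other envelope proteins, and their genes were abundant in dense organoids. Sprr1a (ENSMUSG00000050359) had 22160 in dense against 536 in cystic organoids (41.4-fold, 37.9 to 45.2). Sprr3, abundant in human oesophageal epithelium, had 9585 and 71.1 (135-fold, 106 to 174). Sprr1b had 2395 in dense organoids and no read in cystic ones. All of them were higher in dense organoids. Per kilobase, the level of Sprr1a in dense organoids was 9.53 times that of Sprr1b (9.14 to 9.93) and 187 times that of Ivl (167 to 211). In cystic organoids Sprr1a was still 27.1 times Ivl per kilobase (19.98 to 37.7).

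The 11 Sprr2 genes with a row summed to 17793 normalized counts in dense against 8.37 in cystic organoids, and all 8 cystic reads were assigned to Sprr2a3. Within the dense library the copies ranged from 27.7 for Sprr2a1 to 5638 for Sprr2d. Sprr2d, Sprr2h (4268) and Sprr2i (3008) together held 72.6% of the sum. Sprr2f had 1746, Sprr2a3 1684, Sprr2g 825 and Sprr2k 328, and Sprr2e, Sprr2b and Sprr2a2 had 127, 93.7 and 46.8. The pseudogenes Sprr2j-ps and Sprr2c-ps had 87.0 and 0.956, the latter a single read. Reads of some copies cannot be assigned with certainty: 96.3% of the 50-base stretches in Sprr2a1 transcripts, 96.5% in Sprr2a2 and 61.1% in Sprr2a3 also occur in a transcript of another gene. For Sprr2d, Sprr2e and Sprr2i these shares were 4.27%, 10.2% and 12.5%, and for Sprr2h, Sprr2k and Sprr2g they were 0%.

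Copies with like sequence before their start sites differed in level by unlike amounts; the pairs compared per kilobase here and below were chosen after their values were seen. The 200 bases before the start of Sprr2d and Sprr2e were 92% identical without gaps, yet the level of Sprr2d in dense organoids was 42.1 times that of Sprr2e per kilobase (35.5 to 50.4). Sprr2h and Sprr2k, at 72% identity, differed 11.03 times per kilobase (9.88 to 12.3), whereas Sprr2d and Sprr2i, at 79.5% identity, differed 1.70 times (1.63 to 1.77). The sequences of these copies are shown because they carry the same elements at nearly the same places. Shown with them are Sprr1b, Lor, Krtdap and Rptn, which were high in dense organoids and also carry elements marked here. An Lce3 and an Lce1 gene that lack the elements are added. The sequences are not a sample of all genes that were high in dense organoids. Each line gives the 200 bases before the RefSeq transcription start, 5′ to 3′ along the gene's strand. Capitals mark TGANTCA on either strand, the site type of AP-1, a transcription factor known to drive envelope genes in keratinocytes; TATAAA on either strand; and ATTTGCAT on either strand, the octamer, which was searched for only after the sequences had been read.
Sprr2d, chr3:92338940-92339139, + strand, GRCm38.p6: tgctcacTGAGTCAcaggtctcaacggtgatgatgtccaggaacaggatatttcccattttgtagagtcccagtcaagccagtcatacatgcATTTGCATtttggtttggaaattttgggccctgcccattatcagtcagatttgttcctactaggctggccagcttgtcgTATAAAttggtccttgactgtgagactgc
Sprr2e, chr3:92351943-92352142, + strand, GRCm38.p6: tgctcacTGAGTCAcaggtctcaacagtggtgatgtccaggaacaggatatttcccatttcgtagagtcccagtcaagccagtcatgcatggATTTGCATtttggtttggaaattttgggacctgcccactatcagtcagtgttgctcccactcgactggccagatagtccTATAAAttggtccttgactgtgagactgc
Sprr2i, chr3:92407791-92407990, + strand, GRCm38.p6: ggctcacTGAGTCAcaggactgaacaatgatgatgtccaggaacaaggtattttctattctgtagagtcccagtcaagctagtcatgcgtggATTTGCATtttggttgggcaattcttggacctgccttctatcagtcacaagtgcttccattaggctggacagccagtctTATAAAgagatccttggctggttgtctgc
Sprr2h, chr3:92385485-92385684, + strand, GRCm38.p6: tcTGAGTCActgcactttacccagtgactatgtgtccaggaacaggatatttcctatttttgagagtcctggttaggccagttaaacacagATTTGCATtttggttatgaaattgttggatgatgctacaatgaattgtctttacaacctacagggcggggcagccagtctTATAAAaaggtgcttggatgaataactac
Sprr2k, chr3:92432382-92432581, + strand, GRCm38.p6: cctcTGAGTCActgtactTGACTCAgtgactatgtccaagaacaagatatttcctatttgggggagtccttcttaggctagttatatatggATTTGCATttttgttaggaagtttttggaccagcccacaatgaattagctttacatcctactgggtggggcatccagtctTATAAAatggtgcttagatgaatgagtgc
Sprr1b, chr3:92438780-92438979, - strand, GRCm38.p6: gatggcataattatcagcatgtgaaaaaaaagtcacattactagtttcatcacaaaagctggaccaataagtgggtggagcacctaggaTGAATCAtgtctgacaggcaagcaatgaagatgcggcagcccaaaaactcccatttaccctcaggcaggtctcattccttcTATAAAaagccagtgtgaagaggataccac
Lor, chr3:92083143-92083342, - strand, GRCm38.p6: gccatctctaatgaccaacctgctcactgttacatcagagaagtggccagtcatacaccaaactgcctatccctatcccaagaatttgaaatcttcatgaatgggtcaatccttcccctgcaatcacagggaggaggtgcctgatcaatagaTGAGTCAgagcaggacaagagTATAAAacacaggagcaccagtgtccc
Krtdap, chr7:30787705-30787904, + strand, GRCm38.p6: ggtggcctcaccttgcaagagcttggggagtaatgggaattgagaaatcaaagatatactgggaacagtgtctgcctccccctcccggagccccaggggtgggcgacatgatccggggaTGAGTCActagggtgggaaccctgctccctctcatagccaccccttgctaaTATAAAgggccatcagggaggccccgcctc
Rptn, chr3:93393499-93393698, + strand, GRCm38.p6: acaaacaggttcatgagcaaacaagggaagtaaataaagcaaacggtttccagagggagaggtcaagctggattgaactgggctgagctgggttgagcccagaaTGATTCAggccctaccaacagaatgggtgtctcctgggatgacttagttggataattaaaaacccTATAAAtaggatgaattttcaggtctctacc
Lce3a, chr3:92926231-92926430, - strand, GRCm38.p6: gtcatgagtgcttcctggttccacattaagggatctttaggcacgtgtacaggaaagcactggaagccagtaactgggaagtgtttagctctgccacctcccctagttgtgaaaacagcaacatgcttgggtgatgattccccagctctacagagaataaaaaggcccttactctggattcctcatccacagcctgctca
Lce1a2, chr3:92670316-92670515, - strand, GRCm38.p6: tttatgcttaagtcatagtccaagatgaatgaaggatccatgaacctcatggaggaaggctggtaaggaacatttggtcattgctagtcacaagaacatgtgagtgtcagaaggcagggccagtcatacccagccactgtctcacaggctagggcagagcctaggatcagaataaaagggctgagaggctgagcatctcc

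RefSeq promoter windows of 300 bases, from 250 before to 50 after the start, were found for 46 of the 56 genes (50 windows). TGANTCA occurred in 20 of the 50 windows (40%), beside 7.81% of all 32817 windows and 5.20% of windows of genes with a mean of at least 50. TATAAA on the gene's strand between 40 and 20 bases before the start occurred in 18 of 50 (36%), beside 2.00% and 1.28%. ATTTGCAT occurred in 7 of 50 windows (14%), beside 1.74% of all windows. These 7 were Sprr2 windows, out of 10 for that family, and the same number of Sprr2 windows held TGANTCA and TATAAA. Neither TGANTCA nor ATTTGCAT occurred in the 7 Lce1 and 6 Lce3 windows. The windows of duplicated genes are not independent, and outside the Sprr2 and Lce families TGANTCA occurred in 13 of 27 windows. These 13 include the windows of Sprr1b, Lor, Krtdap and Rptn, whose sequences are printed above. Of the most abundant genes in dense organoids with a window, Dmkn (28685) and Sprr1a (22160) held TGANTCA. Cnfn (23175), Sfn (20726) and Cdsn (17582) did not. Whether these letters bear on level was not tested. TTGCNNAA (C/EBP type) was also more frequent, in 22% beside 10.8% and 8.13%. Dmkn, Cdsn and Tgm1 have more than 1 window each, and windows of the same gene are not independent either. All Dmkn windows held both TGANTCA and TTGCNNAA, whereas no Cdsn or Tgm1 window held TGANTCA. Of the other letters searched, GGGNGGG was found in 30% beside 48.1% of all windows, CACCC in 56% beside 57.5% (zinc finger factors of the KLF and SP type; the pair can overlap) and AACNNGTT in 6% beside 4.20% (GRHL type). All were searched on both strands. The median GC content was 47.2% in these windows and 52.7% in all windows. A match is a description of the letters and not a bound site.

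Loricrin and the late cornified envelope proteins reinforce the shell at the end of differentiation. Loricrin (Lor, ENSMUSG00000043165), the main envelope protein of the epidermis, had 3664 in dense against 49.2 in cystic organoids (74.5-fold, 55.9 to 102). Cornifelin (Cnfn, ENSMUSG00000063651) had 23175 and 473 (49.0-fold, 44.7 to 53.9). Per kilobase Cnfn was the most abundant of the 56 genes in dense organoids, with 32232, and stood 15.7 times above Lor (15.1 to 16.2). In cystic organoids it stood behind Ppl and Sprr1a, with 658 per kilobase.

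The late cornified envelope families separated from each other in dense organoids. In human skin, LCE3 genes are known to be induced when the barrier is injured, whereas LCE1 genes are expressed in intact skin. All 6 Lce3 genes were found in dense organoids and none had a read in cystic organoids. Lce3a had 1459 normalized counts, at least 465-fold above the floor of 3 reads in the cystic library, followed by Lce3e (607), Lce3f (563), Lce3c (541), Lce3b (210) and Lce3d (101). The 8 Lce1 genes with a row ranged from 0 to 24.9 in dense organoids and from 0 to 4.18 in cystic organoids. Together the Lce1 genes had 59 reads in the dense and 6 in the cystic library, and the Lce3 genes 3642 and 0. Per kilobase in dense organoids, the Lce3 genes ran from 206 to 2657 and the Lce1 genes from 0 to 34.8, without overlap. Between 12.1% and 49.3% of the 50-base stretches of an Lce3 gene occur in another gene, mostly another Lce3 gene, so the values of single copies are less certain than the family's sum.

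The filaggrin-type genes, which encode long S100-fused repeat proteins, did not follow one level. Repetin (Rptn), known from mouse tongue and forestomach, had 2880 in dense against 11.5 in cystic organoids (250-fold, 140 to 502). Trichohyalin (Tchh), a hair follicle sheath and tongue protein, had 1129 and 183 (6.17-fold, 5.26 to 7.27). Cornulin (Crnn), a protein of human oesophageal epithelium, had 151 in dense organoids, and filaggrin (Flg, ENSMUSG00000102439), which bundles keratin in the epidermal stratum corneum, had 73.6; neither had a cystic read. Hornerin (Hrnr) had 8.60 and no cystic read. Per kilobase, Flg reached only 3.91 in dense organoids, at percentile 33.4 of all genes, and Lor was 527 times higher (420 to 669). In the longest annotated transcripts, 79.2% of the 50-base stretches of Flg and 69.1% of those of Hrnr are repeated within the gene itself, so the counting of reads in repeats, which is not given in the sources used here, bears on these values.

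Among the transglutaminases, the levels belonged to different enzymes in each library. Tgm1 (ENSMUSG00000022218), the membrane-anchored enzyme of keratinocytes, had 8305 in dense against 13.6 in cystic organoids (611-fold, 357 to 1147). Tgm5, another epidermal form, had 988 and 178 (5.56-fold, 4.72 to 6.58). Per kilobase Tgm1 was 8.38 times Tgm5 in dense organoids (7.86 to 8.95) and 0.0763 times Tgm5 in cystic organoids (0.0398 to 0.134), so their order was the opposite. Tgm3, which cross-links soluble precursors, had 126 and no cystic read, and was 86.1 times below Tgm1 per kilobase in dense organoids (72.5 to 103). Tgm2, the widespread tissue form, was higher in cystic organoids, with 16.7 against a single read in dense organoids (17.51-fold, 2.72 to 734). Tgm4, a prostate enzyme, had 14.3 in dense and no read in cystic organoids, and Tgm7 had 3 reads in cystic and none in dense organoids. The overlap with other genes was 18.7% of 50-base stretches for Tgm2 and 22.0% for Tgm4.

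Of the 4 secreted and corneodesmosome genes, 3 had at most 3 reads in the cystic library. Dermokine (Dmkn) had 28685 against 3 reads (9140-fold, 3127 to 44321). Corneodesmosin (Cdsn), the adhesion protein between dead cells, had 17582 against 2 reads (8403-fold, 2326 to 69393). Keratinocyte differentiation associated protein (Krtdap, ENSMUSG00000074199) had 14105 against none, which makes it at least 4494-fold higher. These 3 were high in dense organoids and all but missing from the cystic library. Suprabasin (Sbsn) differed less, with 2896 and 112 (25.9-fold, 21.3 to 31.7). Sbsn, Dmkn and Krtdap are direct neighbours in that order among protein-coding genes of chromosome 7 in RefSeq. Per kilobase in dense organoids, Krtdap and Dmkn were 26.0 times (25.001 to 27.04) and 16.4 times (15.8 to 17.0) above Sbsn, whereas in cystic organoids Dmkn was 0.0464 times Sbsn (0.00941 to 0.139). Tmem147, in the same stretch, had 1429 and 1516. Of the 50-base stretches of Sbsn, 6.96% also occur in another gene, Tmem147os.

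The cytosolic and processing genes differed in the same direction. Stratifin (Sfn), the epithelial 14-3-3 sigma protein, had 20726 and 512 (40.5-fold, 37.0 to 44.4), although 15.03% of its 50-base stretches also occur in another gene, Gm7850. Asprv1, the skin protease that processes profilaggrin, had 5267 and 5.23 (1007-fold, 431 to 3102). Endou, an endoribonuclease, had 6099, Nccrp1, an F-box-like protein of squamous epithelia, had 5779, and Calml3, an epithelial calmodulin-like protein, had 2756; none of them had a read in cystic organoids. Against the floor of 3 reads they were at least 1943-fold, 1841-fold and 878-fold higher in dense organoids. In dense organoids Asprv1 stood at 3405 per kilobase, against the 3.91 of Flg given above.

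Many of these genes lie together on chromosome 3 in the epidermal differentiation complex, taken here as the stretch from S100a1 to S100a11 in RefSeq. Of its 69 protein-coding genes, 52 had a row, 34 of them cornified envelope genes and 18 others. Sprr2g, Sprr2j-ps and Sprr2c-ps, also on chromosome 3, are not among the 69 and not in these counts. Of the 34, 21 had a mean of at least 50 and all 21 were dense-high, beside 7.65% of 11279 genes. Most of the 21 reached that mean through the dense library alone, so nothing is read from this count either. The S100 genes of the stretch did not share one direction. Of 13 with a row, 10 had a mean of at least 50, with 3 dense-high and 3 cystic-high, beside 7.65% and 7.86% of 11279 genes. S100a7a had 6167 in dense against 2.09 in cystic organoids, while S100a8 and S100a9, chosen after their values were seen, had 66.0 and 184 in dense against 1110 and 1448 in cystic organoids. Between the Lce genes, Kprp, a keratinocyte proline-rich protein gene, had 1635 and no cystic read, and Crct1 had 11775 and 6.28.

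**Figure D3:**
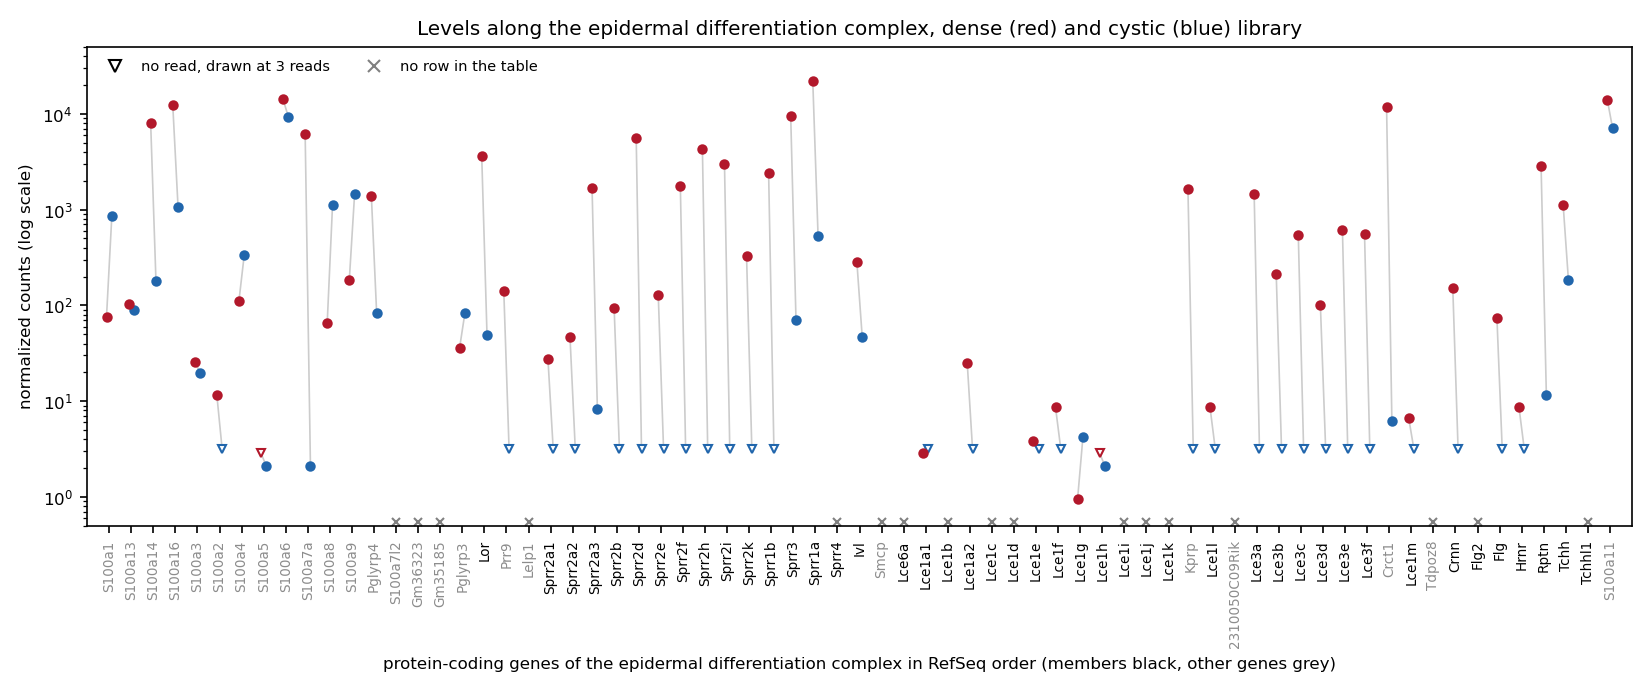
Normalized counts on a log axis in dense (red) and cystic (blue) organoids for the 69 protein-coding genes of the epidermal differentiation complex in RefSeq order, with open triangles for no read and crosses for genes without a row. Most Sprr genes and the Lce3 genes lie well above the floor in dense organoids, the Lce1 genes are at or below 24.9 in both, and the S100 genes at the left lie in either order.

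Partners of the envelope were counted from 8 lists. As for the envelope genes, those that reach a mean of 50 only through the library where they are high had to differ. The counts that follow therefore cover genes whose opposite library held 50 normalized counts or more, set beside 3.66% dense-high among genes with that level in cystic organoids and 3.38% cystic-high among 10812 genes with that level in dense organoids. This count was added after the data were seen.

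Of 9 corneocyte keratin and desmosome genes with that level in cystic organoids, 8 were dense-high. Perp, a desmosome-associated membrane protein gene, had 101016 and 9241 (10.9-fold, 10.7 to 11.2), and the plakophilin gene Pkp1 had 52290 and 103. The exception was Krt10, and it was named after its values were seen, as was its pair Krt1. These keratins mark the suprabasal epidermis, and Krt1 had 4.78 in dense against 1.05 in cystic organoids and Krt10 162 and 105 (1.55-fold, 1.21 to 2.01). Of 4 keratins of internal and activated stratified epithelium, 3 were dense-high, among them Krt13, the suprabasal keratin of mucosa, with 45505 against 109 (418-fold, 345 to 512). The exception, Krt4, the usual partner of Krt13, had 1076 in dense against 3923 in cystic organoids (3.64-fold higher in cystic, 3.41 to 3.90), and was chosen after its values were seen. Of 5 basal epithelial genes, 4 were dense-high. Of 4 simple epithelial genes with at least 50 normalized counts in dense organoids, 3 were cystic-high.

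Of 10 proteases and inhibitors of the stratum corneum, 4 were dense-high, and of 18 with that level in dense organoids 1 was cystic-high. The kallikrein gene Klk8 and Wfdc5, a protease inhibitor gene of the WAP family, lay outside these 10. Klk8 had 8358 and 9.42 (888-fold, 467 to 1942), and Wfdc5 had 3140 and no cystic read. Of 10 barrier lipid genes, 3 were dense-high, and of 16 with that level in dense organoids 1 was cystic-high. Among the dense-high genes was the fatty acid hydroxylase gene Cyp4f39, with 7885 and 55.4 (142-fold, 109 to 190.0). Alox12b, the lipoxygenase needed for the lipid envelope, had 3573 and no cystic read.

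Of 24 regulators of late differentiation, 8 were dense-high, and of 25 with that level in dense organoids 0 were cystic-high. Trp63, the master regulator of stratified epithelium, had 16344 and 60.7 (269-fold, 208 to 355), and Hopx had 16309 and 264 (61.9-fold, 54.6 to 70.3). The AP-1 subunit gene Junb was present in both, with 15911 and 7009 (2.27-fold, 2.21 to 2.34), and Fosl1, named after its values were seen, had 390 in dense against 630 in cystic organoids (1.61-fold higher in cystic, 1.42 to 1.84). Of 12 other genes listed for the epidermal differentiation complex, 3 were dense-high, and of 15 with that level in dense organoids 3 were cystic-high. Both counts include S100a10, named here only because it lies outside the stretch taken above.

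**Figure D4:**
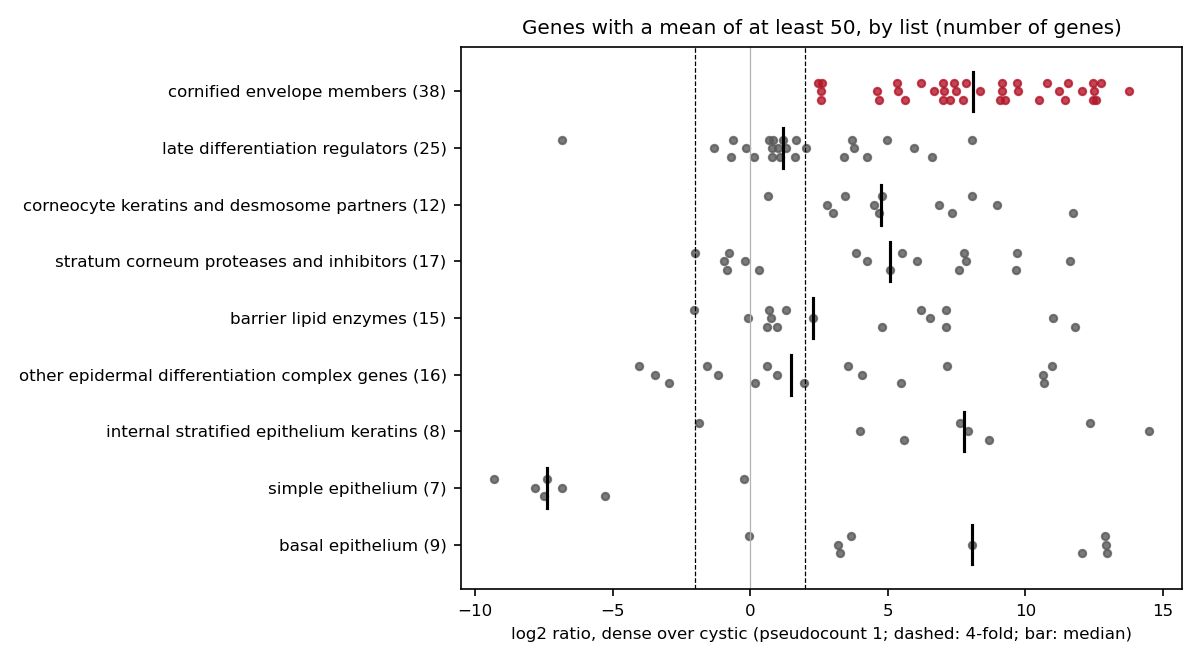
Log2 ratio of dense over cystic (pseudocount 1) for genes with a mean of at least 50, which some reached through 1 library alone, by list, with the median as a bar and dashed lines at 4-fold. The cornified envelope genes lie right of the 4-fold line, the median of the regulators is 1.18, and 6 of the 7 simple epithelial genes lie left of the opposite line.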

How the data were processed

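The authors deposited a table with a normalized read signal per gene in each of the 2 libraries. Per the labels' protocols, RNA was amplified with Smart-seq v4, a PCR method that copies whole transcripts, so reads without molecular identifiers are not independent molecules. The submitters' processing notes name DESeq 1.32.0, mm9 and TopHat. Not given in the sources used here were the role of each, the read counter, the annotation and the strand setting. In each column 100% of values were whole multiples of the smallest (tolerance 0.001 read), and whole reads were recovered by dividing by it. The 2 spike-in rows, with 2 reads in dense and 0 in cystic organoids, were left out. With 1 library a group no count test was possible.

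Ratios used a pseudocount of 1. Intervals are 95% exact Poisson (values), Clopper-Pearson (folds) and Wilson (shares). A gene without a read was set at the floor of 3 reads, worth 2.87 (dense) or 3.14 (cystic) normalized counts, and such folds are lower bounds. Lengths are merged exons of GENCODE M21 (56 of 56 genes matched), which with the RefSeq windows is of GRCm38, not mm9. Simulated counts with known folds served to test the rule. The genes, lists and tests were chosen with earlier results of these data known. Named genes are all rows of the rule, and from each further list up to 4 with the largest ratio and the 2 with the highest mean; exceptions are stated. Alternatives were other pseudocounts, filters, thresholds and scalings, and summed families. Tools were Python 3.11.15, scipy 1.17.1, pandas 2.3.3 and, for scaling, edgeR 4.0.16. A pituitary marker result is not reported here.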

Additional observations from a re-analysis of the deposited data

How the results depend on the processing

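No paired analysis was possible because each group has 1 library, and for the same reason no library could be left out. The number of cornified envelope genes at least 4-fold higher in dense organoids, 38, lay between 26 (near-identical families summed) and 50 (mean of at least 1) under the 11 alternatives. At a pseudocount of 50, 34 of the 38 remained past 4-fold, and all 38 kept a higher value in dense organoids under each pseudocount and scaling. The number at least 4-fold higher in cystic organoids was 0 and became 2 at a mean of at least 1 (Tgm2 and Tgm7, both under 20 reads). The median log2 ratio, 8.10, was 6.68 at a mean of at least 1 and 9.15 at a mean of at least 200. It was 6.17 and 5.19 at pseudocounts of 10 and 50. Under scaling by total reads and by trimmed mean of M-values it was 8.08 and 8.09, and with families summed 7.32. With genes at 0 put at their bound it was 7.46. Over all genes, 863 higher in dense became 1939 at a mean of at least 1, 1761 at 2-fold and 525 at 10-fold. The 886 higher in cystic became 2681, 1767 and 544, and 561 at a mean of at least 200. The causes were not tested beyond what these settings themselves do. The widest shift of the median of all genes under a scaling was -0.029 on the log2 scale. Depth limits the Lce1 genes, Tgm2, Tgm4, Tgm7 and Hrnr, whose differences rest on few reads.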
